A study of Mus musculus with 6 samples.

Results

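The genes described here encode the subunits of the oxidative phosphorylation machinery that are carried on nuclear chromosomes. They were chosen by gene symbol, with earlier results of these data known. The rule took all symbols beginning with Nduf followed by a, b, c, s or v, with Uqcr or with Atp5. It also took symbols beginning with Cox and a digit from 4 to 8, together with Sdha, Sdhb, Sdhc and Sdhd. This gave 91 of the 16978 genes in the expression table, on 19 chromosomes. Of these, 80 encode subunits (36 of complex I, 4 of complex II, 8 of complex III, 16 of complex IV and 16 of complex V), 8 encode complex I assembly factors (Ndufaf1 to Ndufaf8), and Ndufb4c, Ndufa4l2 and Atp5s are 3 related genes. The supercomplex factor Cox7a2l is counted among the 16 of complex IV.

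Complexes I and II pass electrons from NADH and succinate to coenzyme Q, complex III passes them on to cytochrome c, and complex IV reduces oxygen to water. Complexes I, III and IV pump protons across the inner mitochondrial membrane, and complex V, the ATP synthase, uses the returning protons to make ATP. In macrophages, classical inflammatory activation is known to lower respiration and raise glycolysis, whereas alternative activation relies more on respiration. The respiratory subunits encoded in mitochondrial DNA were not analysed here.

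Bulk RNAseq was performed on bone marrow derived macrophages (BMDM) from wild type C57BL/6 mice, which were grown with 25 ng/ml M-CSF, the growth factor that drives marrow cells to become macrophages, in PBS-treated and IL17B-treated cultures alike. On day 7 the cells were given 200 ng/ml IL17B, a cytokine of the IL17 family, or PBS and left for 6 hours, giving 3 samples in either group and 6 in all. No source used here says whether the 3 samples came from separate cultures or mice, so p-values may reflect technical spread alone. In bulk RNA, fewer cells of a type and less RNA per cell cannot be told apart.

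The libraries held between 20271411 and 20653322 estimated counts. All 14 macrophage markers were detected in every library, with summed levels from 51811 to 54481 TPM (a level scaled to the same total in each library and corrected for transcript length). Hepatocyte markers were near 0 in the PBS libraries (2.06 to 3.01 TPM over 12 genes, with Alb at 0) and in IL17B replicate 1 (2.18 TPM), but all 12 were detected in IL17B replicates 2 and 3, at 295 and 109 TPM. Nerve markers were lower in the same pair of libraries, at 1.72 and 1.94 TPM, than in the other 4, at 7.13 to 11.2 TPM. Values without both libraries are given below and in the closing section. Striated muscle markers summed to 0.73 to 1.81 TPM over the 5 of 11 found in the table, and brown fat markers to at most 0.37 TPM. Fibroblast markers were at 17.0, 23.7 and 15.9 TPM with PBS and 13.1, 14.3 and 13.4 TPM with IL17B, without overlap, and markers of cycling cells ranged from 263 to 397 TPM with overlapping groups. The part of these transcripts in the results was not tested.

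The c ring of the ATP synthase is the rotor through which protons pass, and its single protein is encoded by 3 unlinked genes. These are Atp5g1 (chr11:96072793-96075694), Atp5g2 (chr15:102662868-102671047) and Atp5g3 (chr2:73908447-73912464), all in GRCm38. The last 75 codons of each coding sequence (GENCODE M21, exonic, 225 bases) are shown because this stretch holds the mature c subunit and shows whether short reads can be assigned to 1 of the 3 genes. Capitals mark the 57 positions at which the 3 sequences are not all the same.
Atp5g1: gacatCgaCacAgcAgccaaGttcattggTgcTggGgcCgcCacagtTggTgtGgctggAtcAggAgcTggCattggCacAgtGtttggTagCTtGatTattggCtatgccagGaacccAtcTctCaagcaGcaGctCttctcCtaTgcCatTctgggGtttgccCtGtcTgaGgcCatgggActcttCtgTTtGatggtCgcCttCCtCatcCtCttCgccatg
Atp5g2: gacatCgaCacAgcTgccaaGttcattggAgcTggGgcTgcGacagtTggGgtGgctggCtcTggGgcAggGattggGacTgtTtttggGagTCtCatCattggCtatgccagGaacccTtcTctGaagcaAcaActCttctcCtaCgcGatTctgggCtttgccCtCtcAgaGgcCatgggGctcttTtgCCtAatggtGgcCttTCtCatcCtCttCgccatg
Atp5g3: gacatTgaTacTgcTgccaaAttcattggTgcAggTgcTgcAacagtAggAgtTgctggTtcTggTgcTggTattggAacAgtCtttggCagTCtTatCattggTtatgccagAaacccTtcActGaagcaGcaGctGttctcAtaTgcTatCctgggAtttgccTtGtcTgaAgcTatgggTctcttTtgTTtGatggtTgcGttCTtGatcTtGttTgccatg
The 3 stretches encode the same residue at 75 of 75 codons in every pair, yet only 43 codons are spelled identically in Atp5g1 and Atp5g2, 33 in Atp5g1 and Atp5g3, and 31 in Atp5g2 and Atp5g3. Atp5g1 and Atp5g2 shared 191 bases (84.9%), Atp5g1 and Atp5g3 shared 180 (80.0%), and Atp5g2 and Atp5g3 shared 177 (78.7%). The longest run of identical bases was 20, in Atp5g1 and Atp5g2. No stretch of 50 bases is therefore common to any pair within these codons, although the proteins they give are the same.

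The promoters of these genes were searched for binding motifs of factors known to control nuclear respiratory genes. Windows of 300 bases around the RefSeq gene starts (GRCm38.p6, 250 bases before and 50 after) were found for 74 of the 91 genes, as 79 windows. The NRF1 core GCGCANGCG, where N is any base, was present on either strand in 23 of 79 windows (29.1%), which belong to 22 genes, against 6.25% of all 32851 windows. The YY1 motif AAGATGGCG was present in 8 (10.1%, against 1.4%), and the ETS motif CCGGAAGT, of the kind bound by GABP, in 5 (6.3%, against 3.89%). None of these 3 motifs contains another. The 32851 windows were not matched to these genes in base composition or expression, so the contrast is not specific to respiratory genes. The 250 bases before the start of Ndufb4, an accessory subunit of complex I (chr16:37654369-37654618, minus strand), and of Sdha, the flavoprotein of complex II (chr13:74350241-74350490, minus strand), are shown because each holds 3 matches to the NRF1 core. Capitals mark these matches.
Ndufb4: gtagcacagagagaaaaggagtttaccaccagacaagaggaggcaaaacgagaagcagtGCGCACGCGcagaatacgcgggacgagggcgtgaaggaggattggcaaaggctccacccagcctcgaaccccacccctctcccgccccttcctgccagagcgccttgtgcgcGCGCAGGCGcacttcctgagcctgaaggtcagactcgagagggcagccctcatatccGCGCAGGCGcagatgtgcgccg
Sdha: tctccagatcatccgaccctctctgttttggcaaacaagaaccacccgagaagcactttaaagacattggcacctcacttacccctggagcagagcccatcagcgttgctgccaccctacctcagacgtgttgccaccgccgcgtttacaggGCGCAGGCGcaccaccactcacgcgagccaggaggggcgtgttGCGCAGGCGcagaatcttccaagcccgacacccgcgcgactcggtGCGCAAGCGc
A match to these letters is a description of the sequence and does not show that a factor was bound. Ndufb4 was at 141, 131 and 131 TPM with PBS and at 138, 144 and 146 TPM with IL17B, and the groups overlapped. The transcript of NRF1 itself (Nrf1) lay between 14.1 and 16.1 TPM in the 6 libraries, overlapping in TPM but higher with IL17B in CPM (log2 fold change 0.11, SE 0.06, edgeR adjusted p = 0.973). Yy1 was at 66.0 ± 4.37 and 66.5 ± 2.54 TPM (SD, n = 3 each).

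Transcripts of the 80 subunits were abundant in BMDM. Together they made up 13561, 13000 and 13710 TPM in the PBS libraries and 13043, 13466 and 13240 TPM in the IL17B libraries. The means were 13424 ± 374 and 13250 ± 212 TPM (SD, n = 3 each), or 1.342 ± 0.0374% and 1.325 ± 0.0212% of all TPM. The groups overlapped, and the difference between the means was smaller than the SD in either group.

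Complexes IV and V had the largest summed levels, followed by complex I, complex III and complex II. The complex IV sum includes the supercomplex factor Cox7a2l, at means of 427 TPM with PBS and 440 TPM with IL17B. The means of complexes IV and I differed by less than this, so their order depends on counting Cox7a2l. The 16 complex V subunits summed to 4121 ± 53.6 TPM with PBS and 4091 ± 66.1 TPM with IL17B, and the 16 complex IV subunits to 3985 ± 184 and 3856 ± 36.8 TPM. Complex V was above complex IV in every library. In PBS replicate 1 they were at 4125 and 4059 TPM, and in PBS replicate 3 at 4172 and 4121 TPM. Both pairs were closer than the spread of complex IV between PBS libraries. The 36 complex I subunits summed to 3574 ± 87.2 and 3563 ± 96.4 TPM, the 8 complex III subunits to 1170 ± 42.5 and 1180 ± 16.9 TPM, and the 4 complex II subunits to 574.4 ± 9.82 and 560.3 ± 11.9 TPM. For each of the 5 complexes the libraries of the 2 treatments overlapped.

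**Figure D1:**
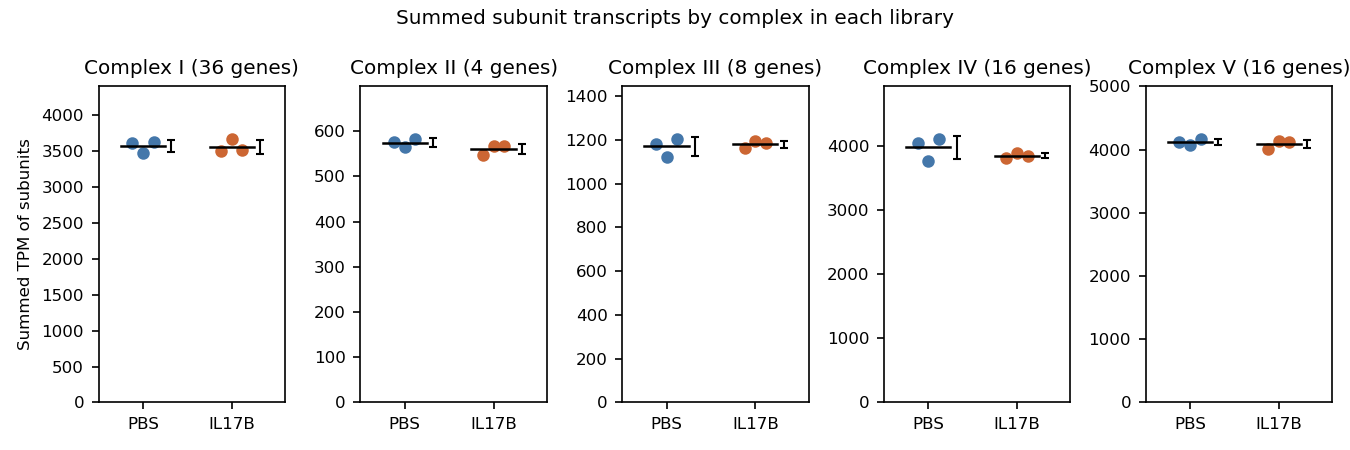
Summed TPM (y axis, from 0) of the subunit genes of each complex in the 3 PBS and the 3 IL17B libraries. Points are libraries, horizontal lines are means and bars are SD beside them. For complex IV, PBS replicate 2 lay at 3775 TPM, below the IL17B libraries at 3821 to 3894 TPM, while the other PBS libraries lay above them at 4059 and 4121 TPM.

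The composition of the respiratory transcripts was close in the 2 treatments. Complex I contributed 26.6% of the subunit TPM with PBS and 26.9% with IL17B, complex IV 29.7% and 29.1%, and complex V 30.7% and 30.9%. The share of complex III was 8.71, 8.64 and 8.79% with PBS and 8.90, 8.86 and 8.96% with IL17B. This was the only one of the 5 TPM shares whose groups did not overlap, and no test was made of it. The mean sum of complex III with IL17B was 101% of that with PBS in TPM but 98.7% in CPM (counts relative to library size). For all 80 subunits these values were 98.7% and 98.5%, so the difference in share was seen in TPM. Uqcrh, described below, belongs to complex III and was higher in every IL17B library, and its part in this share was not tested.

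Single genes spanned a wide range of levels, from 0.0883 TPM for Cox4i2 to 573 TPM for Cox4i1 as means over 6 libraries. The median of the 80 subunits was 141 TPM. Among the subunits under 5 TPM, Cox4i2, Cox6a2, Cox6b2 and Cox7a1, each was a tissue isoform of complex IV. The assembly factors, which act on complex I during its construction and do not remain in it, ranged from 5.83 TPM for Ndufaf6 to 32.3 TPM for Ndufaf8, all above the 4 tissue isoforms. Ndufaf8 also lay above the least abundant complex I subunits, Ndufa11 at 20.5 TPM and Ndufs4 at 23.4 TPM.

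**Figure D2:**
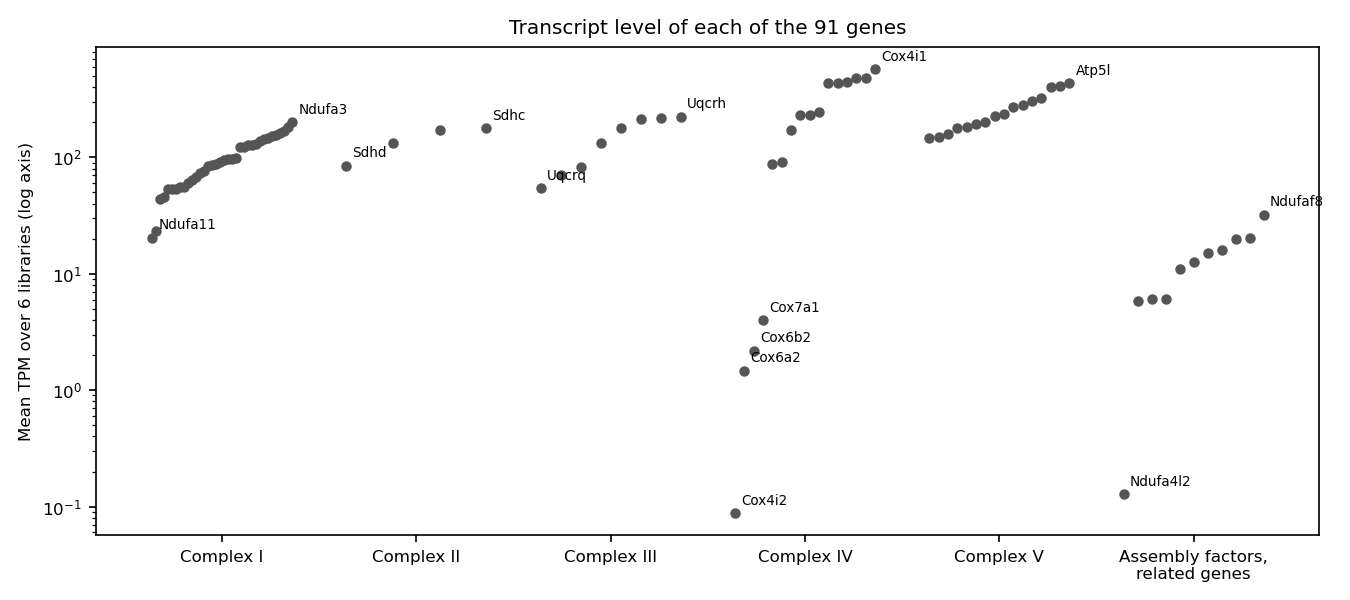
Mean TPM over the 6 libraries (log axis) of each of the 91 genes, 1 point per gene, ordered by level within each complex. Complex I genes lay between 20.5 TPM (Ndufa11) and 201 TPM (Ndufa3), and the 4 tissue isoforms of complex IV formed a separate low group at 0.0883 to 3.98 TPM.

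Differential expression of IL17B over PBS was tested with edgeR on the 13866 genes whose 6 libraries together held 15 counts or more. These included 89 of the 91 genes. Cox4i2 (0, 1 and 0 counts with PBS, 1, 2 and 2 with IL17B) and Ndufa4l2 (1, 2 and 2 counts with PBS, 2, 0 and 0 with IL17B) were too low to test. At a Benjamini-Hochberg adjusted p of at most 0.05, edgeR called 0 of the 89 higher and 0 lower, and the share called over all genes was 0% higher and 0% lower. The smallest adjusted p of the 89 genes was 0.909 by edgeR. DESeq2 called 6 genes of the whole table and limma-voom 0, and neither called any of the 89.

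At an unadjusted p under 0.05, edgeR gave 1 of the 89 genes higher (1.12%, against 2.96% of all genes), which was Uqcrh. It gave 6 lower (6.74%, against 2.28% of all genes), which were Atp5g1, Ndufa4, Ndufa8, Ndufb4c, Ndufaf6 and Cox6a2. DESeq2 gave 2 of the 89 and limma-voom 8 at the same unadjusted threshold. None of these passed the adjustment over all genes. The number on the lower side depended on single libraries, with 0 of the 89 without PBS replicate 1, 9 without PBS replicate 2, 4 without PBS replicate 3 and 1 without IL17B replicate 1. On the higher side it was 3 without PBS replicate 3, 2 without IL17B replicate 1 and 0 without PBS replicate 2 or IL17B replicate 2.

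The estimates were narrow. The 95% interval of the log2 fold change lay within ±0.5 for 84 of the 89 genes and within ±0.3 for 72, with a median SE of 0.067 against 0.081 over all genes. The median log2 fold change of the 89 genes was -0.030, with 60 genes (67.4%) below 0, against a median of 0.000 and 49.9% below 0 over all genes. By complex the median log2 fold change was -0.014 for complex I, -0.018 for complex II, -0.043 for complex III, -0.065 for complex IV and -0.009 for complex V. Without IL17B replicates 2 and 3, those with hepatocyte transcripts, the median was -0.08 over the tested genes and -0.07, -0.07, -0.11, -0.10 and -0.06 for complexes I to V, a comparison chosen after seeing the data that leaves 1 IL17B library. Single libraries also moved these medians. Over the 89 genes the median was 0.00 without IL17B replicate 1, -0.01 without PBS replicate 1, -0.05 without PBS replicate 2 and -0.06 without IL17B replicate 2, and the medians of complexes I, II and V lay on either side of 0, from -0.05 to 0.02, from -0.05 to 0.01 and from -0.02 to 0.02.

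**Figure D3:**
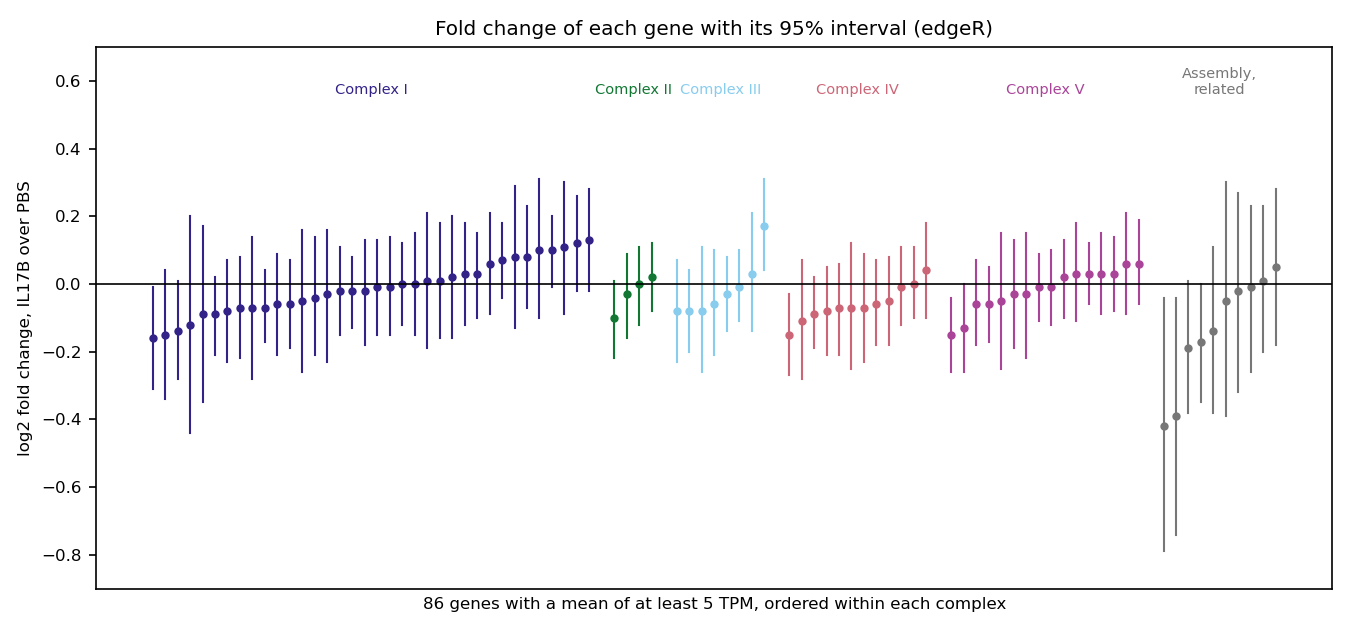
Log2 fold change of IL17B over PBS (y axis) from edgeR with its 95% interval for the 86 tested genes with a mean of at least 5 TPM, ordered within each complex. Points are estimates and vertical lines are intervals. The widest intervals below 0 belong to Ndufaf6 and Ndufb4c, which reach -0.79 and -0.74, and no gene shown had an adjusted p under 0.909.

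When genes were sorted by whether the TPM values of the 2 treatments overlapped, 4 of the 89 lay entirely higher with IL17B (4.49%, against 4.64% of all genes) and 12 entirely lower (13.5%, against 4.29%). The 4 were Ndufs1, Ndufv1, Ndufv3 and Uqcrh. The 12 were Ndufa8, Ndufab1, Ndufb8, Ndufc2, Sdhc, Uqcrc1, Ndufa4, Atp5g1, Atp5g3, Ndufaf4, Ndufaf6 and Ndufaf7. On CPM (counts relative to library size after TMM, with no correction for length) the numbers were smaller, with 2 higher (2.25%, against 5.16%) and 8 lower (8.99%, against 4.77%). Ndufs1 and Uqcrh were higher on both scales, and Ndufab1, Ndufc2, Sdhc, Ndufa4, Atp5g1, Ndufaf4, Ndufaf6 and Ndufaf7 were lower on both.

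The subunit genes also moved together from library to library. Relative to its mean over the 6 libraries, the median subunit was at 0.045, -0.051 and 0.033 on the log2 scale in PBS replicates 1, 2 and 3 and at -0.065, 0.053 and -0.020 in IL17B replicates 1, 2 and 3. Of the 76 subunits with a mean of at least 1 CPM, 77.6, 23.7 and 71.1% lay above their own mean in the PBS libraries, and 18.4, 80.3 and 39.5% in the IL17B libraries. The high libraries were thus PBS 1, PBS 3 and IL17B 2, and each treatment held both high and low libraries. The 89 genes are for this reason not 89 separate observations of a treatment.

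The transcripts of these genes are short, with a median length of 656 bases, as implied by the deposited values, against 2881 for the other genes. The 648 other genes of 500 to 1000 bases had median deviations of 0.051, -0.044 and 0.006 in the PBS libraries and -0.051, 0.056 and -0.021 in the IL17B libraries. The 8064 other genes of 2000 bases or longer had -0.017, 0.010 and 0.001, and 0.012, -0.013 and 0.005. In 5 of the 6 libraries the shorter of these 2 classes deviated in the direction opposite to the longer, and in all 6 it had the sign of the subunit genes. The part of transcript length in the values of the subunit genes was not tested.

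**Figure D4:**
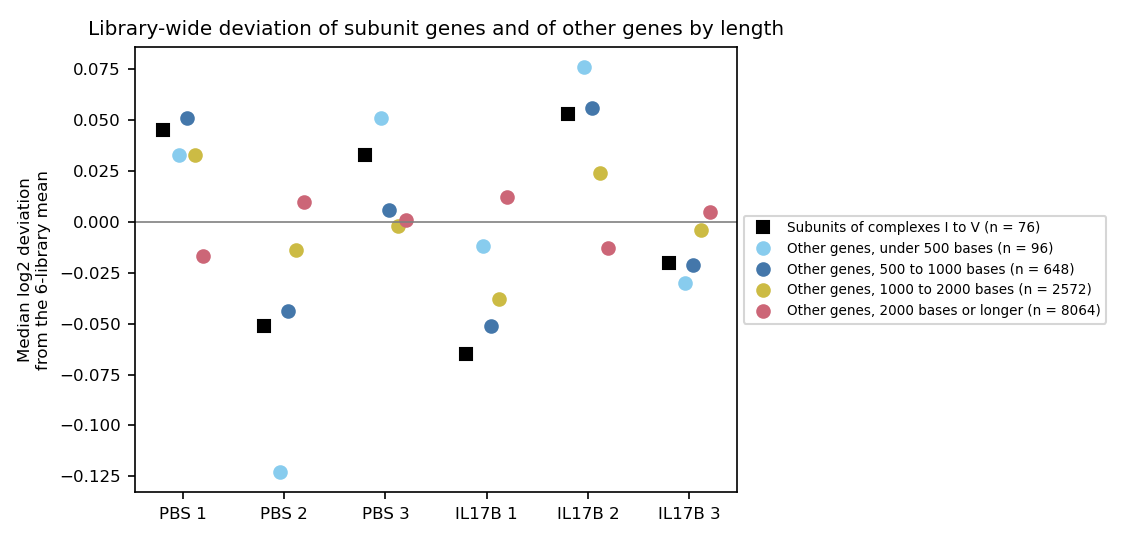
Median log2 deviation from the mean over 6 libraries (y axis) in each library (x axis) for the 76 subunit genes and for other genes grouped by implied transcript length. The subunit genes (squares) were highest in IL17B 2 (0.053) and PBS 1 (0.045) and lowest in IL17B 1 (-0.065), and other genes of 500 to 1000 bases were highest and lowest in the same 3 libraries.

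Complex I is built from core subunits, which carry the flavin and iron-sulphur clusters or the proton channels, and from accessory subunits around them. Of the 7 nuclear core subunits, 5 had a log2 fold change above 0 and the median was 0.021, whereas 20 of the 29 accessory subunits were below 0 with a median of -0.022. The summed core level was 536.6, 524.7 and 535.3 TPM with PBS and 529.3, 547.4 and 540.5 TPM with IL17B, and the groups overlapped. Ndufs1 (chr1:63143592-63176822), the largest iron-sulphur protein of the complex, was at 41.7, 42.3 and 42.2 TPM with PBS and 44.0, 44.5 and 47.1 TPM with IL17B. All 3 IL17B libraries were higher, by a log2 fold change of 0.10, with an SE of 0.05 and an edgeR adjusted p of 0.960. Ndufv1, which binds NADH and the flavin, was at 56.9, 58.5 and 59.1 TPM with PBS and 60.0, 61.7 and 61.7 TPM with IL17B (log2 fold change 0.07 with an SE of 0.05, edgeR adjusted p = 0.976).

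Ndufv3, an accessory subunit that sits beside Ndufv1, was at 119, 108 and 122 TPM with PBS and 128, 133 and 130 TPM with IL17B. These groups did not overlap in TPM but did in CPM, and the log2 fold change was 0.12 with an SE of 0.06 (edgeR adjusted p = 0.960). Ndufa3, the most abundant complex I transcript, was at 202, 185 and 187 TPM with PBS and 210, 217 and 202 TPM with IL17B (log2 fold change 0.13 with an SE of 0.07, edgeR adjusted p = 0.960). In this gene the highest PBS library equalled the lowest IL17B library.

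Other accessory subunits of complex I lay on the lower side. Ndufa8 was at 107, 100 and 107 TPM with PBS and 92.5, 99.4 and 90.1 TPM with IL17B, and Ndufab1, the mitochondrial acyl carrier protein, was at 85.7, 92.8 and 88.7 TPM with PBS and 78.8, 85.2 and 79.5 TPM with IL17B. The log2 fold changes were -0.16 with an SE of 0.07 (edgeR adjusted p = 0.941) and -0.14 (SE 0.07, edgeR adjusted p = 0.960). The 2 groups of Ndufa8 were separated by less than 1 TPM, between PBS replicate 2 and IL17B replicate 2. Ndufb8 and Ndufb11, subunits of the membrane arm and the other abundant members, had log2 fold changes of -0.07 (SE 0.05) and -0.08 (SE 0.07), with adjusted p = 0.976 and 0.988 by edgeR.

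Complex II, succinate dehydrogenase, is also an enzyme of the TCA cycle and has no subunit encoded in mitochondrial DNA. Sdha, which oxidises succinate, was at 131, 130 and 131 TPM with PBS and 130, 131 and 137 TPM with IL17B (log2 fold change 0.02 with an SE of 0.04, edgeR adjusted p = 0.993). Sdhb, the iron-sulphur subunit, was at 167, 169 and 187 TPM and at 165, 175 and 173 TPM, with overlapping groups. Sdhc, a membrane anchor, was at 192, 182 and 180 TPM with PBS and 166, 174 and 176 TPM with IL17B, lower in all 3 IL17B libraries (log2 fold change -0.10 with an SE of 0.05, edgeR adjusted p = 0.960). Sdhd, its partner in the membrane, ranged over 82.4 to 86.3 TPM in the 6 libraries.

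In complex III, Uqcrh (chr4:116066965-116075070), the hinge protein at the docking site of cytochrome c, had the largest estimate above 0 in the complex. It was the most abundant transcript of the complex over the 6 libraries, but with PBS alone its mean of 210 TPM was close to the 214 TPM of Uqcr11 and the 213 TPM of Uqcrb. It was at 199, 202 and 231 TPM with PBS and 244, 235 and 235 TPM with IL17B. All 3 IL17B libraries were above all 3 PBS libraries, but PBS replicate 3 lay within 4 TPM of them. The log2 fold change was 0.17 with an SE of 0.06 (edgeR adjusted p = 0.909), with estimates from 0.13 to 0.25 when single libraries were left out.

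The other 7 subunits of complex III had log2 fold changes between -0.08 and 0.03. Uqcrb, which lies beside the cytochrome b protein, ranged over 209 to 217 TPM in the 6 libraries. Uqcr11 was at 230, 193 and 220 TPM with PBS and 209, 228 and 224 TPM with IL17B, and its estimate of 0.03 (SE 0.08, edgeR adjusted p = 0.993) changed sign when PBS replicate 2 or IL17B replicate 2 was left out. Uqcrc1, a core protein, was at 142, 134 and 134 TPM with PBS and 125, 133 and 132 TPM with IL17B. Its groups were separated in TPM by about 1 TPM and overlapped in CPM. The Rieske protein Uqcrfs1, which hands electrons to cytochrome c1, was at 71.4, 71.4 and 73.0 TPM with PBS and 62.8, 71.1 and 74.0 TPM with IL17B.

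Complex IV had a median log2 fold change of -0.065, which ran from -0.11 without PBS replicate 2 to -0.02 without PBS replicate 1, and 10 of its 11 common subunits had log2 fold changes below 0. The lowest estimate among them was that of Ndufa4 (chr6:11900372-11907450), first described as a complex I subunit and later placed in complex IV. Ndufa4 was at 260, 248 and 262 TPM with PBS and 224, 235 and 237 TPM with IL17B, so that the groups did not overlap. The log2 fold change was -0.15 with an SE of 0.05 (edgeR adjusted p = 0.909), and -0.19 to -0.11 when single libraries were left out.

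Cox4i1 (chr8:120668225-120674209), the most abundant transcript of all 91, was at 592, 548 and 606 TPM with PBS and 557, 562 and 573 TPM with IL17B (log2 fold change -0.06 with an SE of 0.06, edgeR adjusted p = 0.988). Cox6a1 and Cox8a, subunits of the nuclear-encoded shell around the catalytic core, had log2 fold changes of -0.08 (SE 0.06) and -0.05 (SE 0.06), with adjusted p = 0.976 and 0.988 by edgeR. All 3 overlapped between treatments, with PBS replicate 2 at or near the low end. In PBS replicates 1, 2 and 3, the share of the 12 complex IV subunits with at least 1 CPM that lay above their own mean was 100, 16.7 and 91.7%, and in the IL17B replicates it was 16.7, 50 and 16.7%. Cox7a2l, which helps join complexes III and IV into supercomplexes, was at 426, 394 and 460 TPM with PBS and 446, 445 and 430 TPM with IL17B.

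Several complex IV subunits exist as a common form and a form known from heart and skeletal muscle, lung or testis. The BMDM libraries held the common forms. Cox4i1 averaged 573 TPM against 0.0883 for Cox4i2, Cox6a1 averaged 485 TPM against 1.47 for the muscle form Cox6a2, and Cox6b1 averaged 438 TPM against 2.18 for the testis form Cox6b2. Cox7a2 averaged 88.2 TPM against 3.98 for the muscle form Cox7a1. Cox6a2 (chr7:128205435-128206366) had the largest fold change of the 89 genes, yet its counts were 16, 20 and 4 with PBS and 4, 5 and 6 with IL17B. PBS replicate 3 was as low as the IL17B libraries, and the log2 fold change of -1.39, with an SE of 0.58 and an edgeR adjusted p of 0.941 rested on PBS replicates 1 and 2. It lay between -1.81 and -0.98 when single libraries were left out. Striated muscle markers were at 1.55, 0.73 and 0.94 TPM in the PBS libraries and 1.81, 1.31 and 1.15 TPM in the IL17B libraries. At these low levels their relation to Cox6a2 was not tested.

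**Figure D5:**
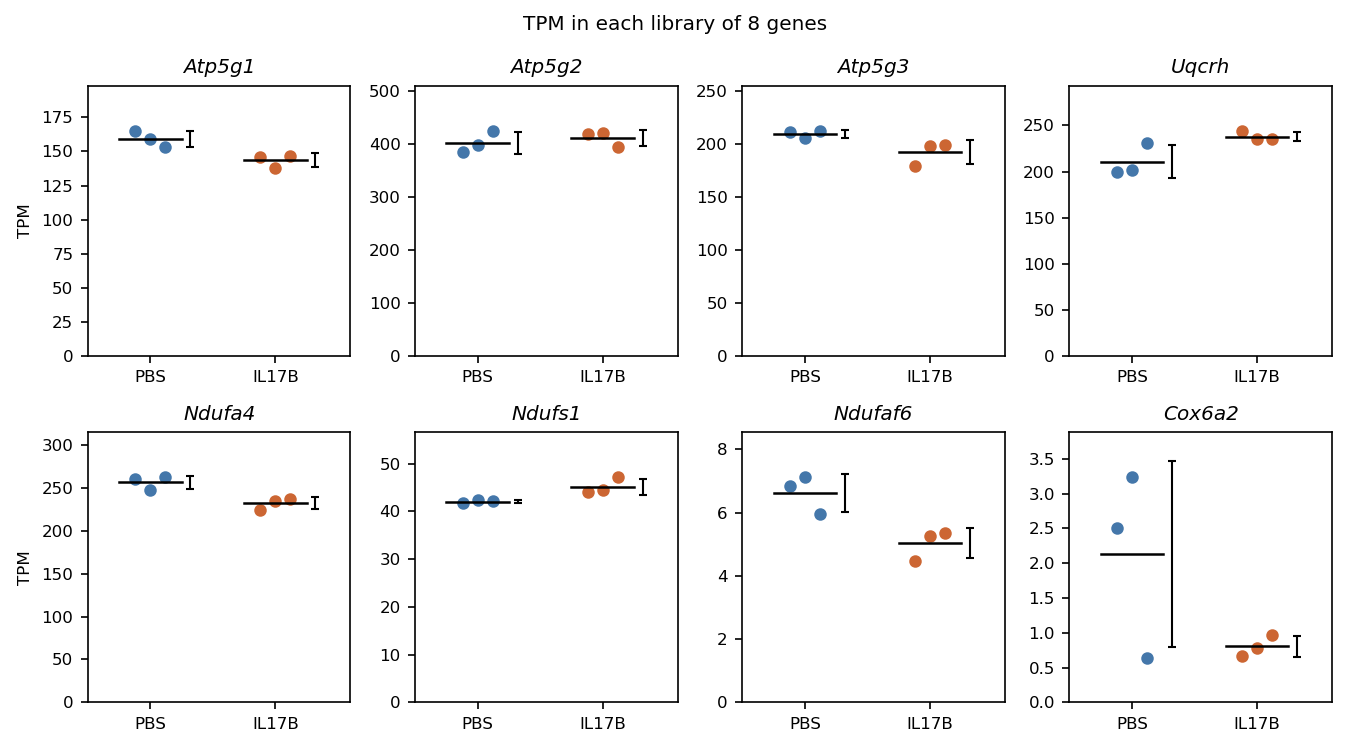
TPM (y axis, from 0) of 8 genes in the 3 PBS and the 3 IL17B libraries. Points are libraries, horizontal lines are means and bars are SD. Atp5g1, Atp5g3, Ndufa4 and Ndufaf6 were lower and Uqcrh and Ndufs1 higher in every IL17B library, Atp5g2 overlapped, and PBS replicate 3 of Cox6a2 (0.64 TPM) lay at the level of the IL17B libraries.

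In complex V, the 3 genes of the c ring differed in level and in estimate. Atp5g2 was the most abundant, at 385, 398 and 425 TPM with PBS and 420, 421 and 394 TPM with IL17B (log2 fold change 0.03 with an SE of 0.05, edgeR adjusted p = 0.990). Atp5g1 was at 165, 159 and 153 TPM with PBS and 146, 138 and 147 TPM with IL17B, lower in all 3 IL17B libraries (log2 fold change -0.15 with an SE of 0.05, edgeR adjusted p = 0.909). Atp5g3 was at 211, 205 and 212 TPM with PBS and 179, 198 and 199 TPM with IL17B, with a log2 fold change of -0.13, with an SE of 0.06 and an edgeR adjusted p of 0.943, and its groups overlapped in CPM. The share of Atp5g2 in the c-ring transcripts was 50.5, 52.3 and 53.8% with PBS and 56.4, 55.6 and 53.3% with IL17B, and these shares overlapped.

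Because the 3 genes encode the same mature protein, their sum is the level of c-subunit message. It was 761.1, 760.9 and 790.8 TPM with PBS and 745.0, 757.3 and 739.9 TPM with IL17B, with means of 770.9 ± 17.2 and 747.4 ± 8.94 TPM (SD, n = 3 each). The groups did not overlap in TPM, by a margin of under 4 TPM, but did in CPM. Relative to Atp5b, the catalytic beta subunit of the F1 head, the sum was 1.87 ± 0.12 with PBS and 1.88 ± 0.097 with IL17B.

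The remaining parts of the ATP synthase had estimates near 0. The 5 subunits of the F1 head and central stalk had log2 fold changes from -0.06 to 0.06, the 4 of the peripheral stalk, which holds the head still, from 0.02 to 0.06, and the 4 accessory membrane subunits from -0.06 to -0.03. Atp5b was at 433, 409 and 396 TPM with PBS and 387, 390 and 418 TPM with IL17B, and Atp5l, subunit g of the membrane part, was at 436, 428 and 468 TPM with PBS and 425, 420 and 440 TPM with IL17B. Both overlapped, with adjusted p = 0.988 by edgeR for each. Usmg5, a membrane subunit of the ATP synthase whose symbol falls outside the rule, was at 243, 218 and 209 TPM with PBS and 228, 240 and 221 TPM with IL17B.

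The complex I assembly factors had a median log2 fold change of -0.091, with 6 of 8 below 0. Ndufaf6 (chr4:11048991-11076237), needed to make the complex I subunit ND1 in human cells, was at 6.83, 7.11 and 5.95 TPM with PBS and 4.48, 5.26 and 5.36 TPM with IL17B. These values rested on 77, 86 and 66 counts and on 48, 60 and 63 counts. The groups did not overlap, and the log2 fold change was -0.42 with an SE of 0.17 (edgeR adjusted p = 0.941). Ndufaf4 and Ndufaf7 were also lower in every IL17B library, with log2 fold changes of -0.17 (SE 0.08) and -0.19 (SE 0.09) and adjusted p = 0.941 and 0.942 by edgeR. The sum over the 8 factors was 121.1 ± 4.86 TPM with PBS and 116.2 ± 4.39 TPM with IL17B, and its groups overlapped. In CPM the sum was 64.59, 66.77 and 64.37 with PBS and 58.40, 63.74 and 60.64 with IL17B, and these groups did not overlap.

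Ndufb4c, which resembles Ndufb4, was at 25.7, 19.6 and 23.5 TPM with PBS and 16.2, 16.0 and 20.4 TPM with IL17B. The log2 fold change was -0.39 with an SE of 0.16 (edgeR adjusted p = 0.941). Its counts and those of Ndufb4 were not whole numbers in the deposited table, so reads were shared out between similar genes and the split is uncertain. Fractional counts occurred in 15 of the 91 genes, against 6037 of all 13866 tested genes. The transcripts of 90 of the 91 genes were split into all stretches of 50 bases and searched for in other annotated genes, and Ndufb4c was not assessed. Among transcripts of other protein-coding genes, more than 5% of stretches were found again for Cox5b (21.8%) and Atp5o (17.2%) alone. When all other annotated genes were counted, 23 genes exceeded 5%, among them Atp5l (68.5%), Uqcrb (43.2%), Atp5g2 (38.3%), Ndufb4 (37.0%) and Uqcrh (7.14%).

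Related genes outside the symbol rule were read from 6 lists, and 0 genes were called in each by edgeR. In the TCA cycle list the median log2 fold change was -0.026 over 17 genes, and the most abundant, Mdh2 and Cs, were at 191 ± 10.3 and 152 ± 5.61 TPM with PBS and 188 ± 3.93 and 149 ± 6.15 TPM with IL17B (SD, n = 3 each). Idh3g was the gene of this list with an unadjusted p under 0.05 by edgeR (log2 fold change 0.13, adjusted p = 0.941). The 13 genes of coenzyme Q synthesis had a median of -0.052 with 10 below 0, and of these Pdss2, which takes part in making the side chain, had an unadjusted p under 0.05 (log2 fold change -0.29, adjusted p = 0.912 by edgeR). The more abundant Coq10a and Coq9 were at 41.5 ± 0.22 and 30.2 ± 2.60 TPM with PBS and 39.7 ± 2.97 and 29.3 ± 1.92 TPM with IL17B.

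Cytochrome c1 (Cyc1) was at 89.7 ± 2.54 and 89.2 ± 1.53 TPM and cytochrome c (Cycs) at 36.6 ± 0.621 and 35.5 ± 4.46 TPM with PBS and IL17B. The 40 tested assembly factors outside the symbol rule had a median log2 fold change of -0.016 and none had an unadjusted p under 0.05 by edgeR. The most abundant of them were the copper chaperone Cox17, at 91.7 ± 7.88 and 94.4 ± 7.90 TPM, and the complex III factor Uqcc2, at 86.4 ± 6.75 and 87.3 ± 8.39 TPM. Of the 12 regulators of mitochondrial biogenesis, with a median of 0.008, the coactivator Pprc1 had an unadjusted p under 0.05 by edgeR (log2 fold change -0.16, adjusted p = 0.909). Esrra, a nuclear receptor that acts on respiratory genes, was at 36.9 ± 0.958 and 36.6 ± 1.49 TPM. The last list held the ATP synthase inhibitor, uncouplers and genes of subunit exchange. Its most abundant gene was the uncoupling protein gene Ucp2 at 1662 ± 60.6 and 1747 ± 58.2 TPM, above every one of the 91 genes in level. Higd2a followed at 130 ± 2.45 and 129 ± 9.57 TPM.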

How the data were processed

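The authors aligned the filtered reads with HISAT2 2.0.4 and Bowtie2 2.2.5 to GRCm38 and its coding genes, and RSEM 1.2.12 gave each gene the deposited estimated counts, TPM and FPKM. Reads that match several genes are divided among them, and TPM depends on the length the authors' software used. The deposited FPKM were used only with the counts to derive the implied length of a transcript.

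The 6 libraries were grouped as labelled, 3 with PBS and 3 with IL17B. Estimated counts were rounded, genes below 15 counts in total were dropped, and the treatments were compared with the quasi-likelihood test of edgeR 4.0.16 (R 4.3.3), with TMM factors, no block and Benjamini-Hochberg adjustment over all 13866 genes. The procedure was first tested on simulated counts with known changes. These were larger than the estimates of all tested members but Cox6a2, so the test does not show whether smaller changes would be found. Library deviations are log2 of CPM plus 0.5 for genes with a mean of at least 1 CPM. With 3 libraries in either group no exact permutation test can pass 0.05, so none is given for sums. Intervals are at 95% and cover the spread between these samples.

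Members and lists were chosen with earlier results of these data known. Members given a fold change are the 3 most abundant of each complex, 5 in either direction by smallest p and paired isoforms. Of other lists the 2 most abundant are named. Ndufa8, Ndufab1, Ndufaf4, Ndufaf7, Idh3g, Pdss2, Pprc1 and the genes whose groups did not overlap were named after their values were seen.

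Alternatives were DESeq2 1.42.0, DESeq2 size factors, library totals, limma-voom and limma 3.58.1 on log2 of TPM plus 0.1 or 1, other filters, a replicate block, each library left out, and IL17B replicates 2 and 3 left out together, the last chosen after seeing the data.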

Additional observations from a re-analysis of the deposited data

How the results depend on the processing

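None of the 91 genes was called in any of the alternatives run, and the smallest adjusted p over them was 0.439 (edgeR, without PBS replicate 3). Over all genes, the number called higher was 0 by edgeR, 6 by DESeq2, 1 by limma on log2 of TPM plus 0.1 with or without the filter, and 0 to 77 when single libraries were left out. The number called lower was 0 to 9 in those fits, and 77 and 9 both came without IL17B replicate 1. Without IL17B replicates 2 and 3 together, a choice made after seeing the data, the median log2 fold changes of complexes I to V were -0.07, -0.07, -0.11, -0.10 and -0.06. Sdha was at -0.04 and Uqcr11 at -0.07. The IL17B library left, replicate 1, was the one with the lowest median subunit deviation. The median of the assembly factors was -0.04 by limma on TPM, and -0.17 to -0.09 when single libraries were left out. Leaving out single libraries turned the sign of Sdhb (-0.07 to 0.02, with 0.00 without IL17B replicate 1), Uqcr11 (-0.05 to 0.10, with -0.01 without IL17B replicate 2), Uqcrb (-0.03 to 0.01, with 0.00 without PBS replicate 3) and Atp5g2 (-0.01 to 0.07). In all, 381 comparisons of a named gene with an alternative kept their direction and their side of the threshold and 9 reversed, and the summed TPM of the complexes moved by less than the spread between replicates in all 48. The causes were not tested.

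Samples of the 2 treatments share replicate numbers, and no source used here says whether these pair them. The deviations of same-numbered samples correlated at -0.143, 0.0119 and -0.13 over 8680 genes, against -0.102 to 0.23 for other combinations. Deviations from a mean of 3 samples depend on each other, so these values cannot settle whether the samples are paired. With a replicate block edgeR called 74 genes higher and 2 lower, with 0 of the 91 among them. With 3 samples for each treatment and log2 standard errors near 0.067, differences much smaller than 0.15 could not be told from the spread. Larger ones may also be missed, because p was adjusted over all genes. The estimates of 0.17 for Uqcrh and -0.42 for Ndufaf6 were not called. For genes such as Cox6a2 the counts limit detection further.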
